A study of Mus musculus with 23 samples.

Results

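The translation initiation and elongation factors were taken as every gene of the 2 deposited tables whose symbol begins with Eif1 to Eif6, Eef1 or Eef2. The rule used names only and no measured value. It gave 53 genes of the 9480 named genes in both tables together. The table of ribosome-associated RNA held all 53 of them among 9363 genes, and the table of flow-through RNA held 41 of them among 4898 genes. Counts of all transcripts of a gene were summed. The name rule also took in genes that are not factors themselves, such as the kinases Eif2ak1 to Eif2ak3 and Eef2k, the methyltransferase Eef2kmt and the pseudogene Eif1-ps1. Of 69 factor genes on a list grouped by role, 17 were in neither table and were not analysed here, among them Eif4a1, Eif4g1, Eif2ak4, Eif2s3y and Eif4ebp3. Eef1d and Eif4a2 were listed mainly by retained-intron transcripts, so their values do not stand for the mRNA.

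The study used young adult mGFAP-Cre-RiboTag mice, in which Cre under a mouse Gfap promoter puts a hemagglutinin (HA) tag on ribosomes, so the tagged cells are those in which that promoter was or had been active. The labels give the genotype of every sample as wild type and name no strain. All animals had a severe crush spinal cord injury (SCI) at thoracic level 10, and the middle 3 mm of the lesion was taken on day 14. From each tissue, RNA pulled down with the tag (HA) and the RNA left behind (flow-through, FT), described by the submitters as astrocyte-specific and non-astrocyte, were sequenced, after low-input cDNA amplification. The 23 libraries form 6 groups. SCI only had 4 HA and 4 FT libraries. A hydrogel depot placed on day 2 and called CT in the labels, a term they do not explain, had 3 HA and 4 FT libraries. A hydrogel depot with growth factors, also placed on day 2, had 3 HA and 5 FT libraries. The series title names FGF and EGF, while the deposited column names call that group BDNF and NT3 gel and the CT group EmGel. The conflict was not settled, and the name used below is hydrogel with growth factors. Title numbers run from 9596 to 9935 in SCI only and from 1645 to 1762 in the hydrogel groups. The labels do not say what the numbers stand for, and the hydrogel and anything that goes with these ranges cannot be told apart. The labels do not say that each number is a separate animal, so each p-value reflects only how much the libraries of a group varied, which may be partly technical.

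HA libraries held 7940025 to 24337017 counts, FT libraries of SCI only 2241603 to 5432938, and FT libraries of the hydrogel groups only 19607 to 145365. Yam1, a noncoding locus that collects reads of ribosomal RNA, took 13.8% to 93.1% of a library's counts. Protein-coding counts, without Lars2, ranged from 198817 to 5707401 in HA and from 2225 to 250279 in FT, and 4 FT libraries of the hydrogel groups had fewer than 10000. The factors of both tables drew 1801 to 55377 counts in an HA library and 35 to 7523 in an FT library. Amplified reads without molecular identifiers are not independent molecules, so counting limits cover counting error only.

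Initiation begins when eIF2 brings the initiator tRNA to the small ribosomal subunit, which eIF1, eIF1A, eIF3 and eIF5 prepare for scanning and which the eIF4 proteins load at the mRNA cap. eIF5B then joins the large subunit, eEF1A delivers each aminoacyl-tRNA, eEF1B recharges it with GTP, and eEF2 moves the ribosome along. Many mRNAs of this machinery, elongation factors above all, start with a run of pyrimidines, the terminal oligopyrimidine (TOP) element, through which mTOR and LARP1 are known to control their translation.

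The start-site sequences of the members that passed the test between HA and FT are shown because a TOP element, where a message has one, lies at the start of the transcript. They run from 30 bases before to 30 bases after the RefSeq start (GRCm38.p6, strand of the gene), and capitals mark the longest run of C and T. Eif3e and Eif3h passed the test too. The first 5 windows belong to members lower in HA and the last 3 to members higher in HA.
Eef1a1, chr9:78481695-78481754, minus strand: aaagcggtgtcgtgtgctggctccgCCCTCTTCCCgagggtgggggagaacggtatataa
Eef1a2, chr2:181156986-181157045, minus strand: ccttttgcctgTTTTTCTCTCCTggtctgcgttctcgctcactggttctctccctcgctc
Eef1b2, chr1:63176801-63176860, plus strand: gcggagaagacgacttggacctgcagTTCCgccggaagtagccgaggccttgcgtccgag
Eef2, chr10:81176601-81176660, plus strand: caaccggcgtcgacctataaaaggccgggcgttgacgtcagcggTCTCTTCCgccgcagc
Eif3f, chr7:108934385-108934444, plus strand: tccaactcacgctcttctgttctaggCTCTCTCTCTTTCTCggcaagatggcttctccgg
Eif3a, chr19:60790664-60790723, minus strand: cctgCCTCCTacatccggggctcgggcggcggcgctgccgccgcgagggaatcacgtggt
Eif3j1, chr2:122028550-122028609, plus strand: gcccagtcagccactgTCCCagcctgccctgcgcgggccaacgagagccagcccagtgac
Eif4h, chr5:134639380-134639439, minus strand: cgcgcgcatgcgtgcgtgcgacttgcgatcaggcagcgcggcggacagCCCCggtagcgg

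Of the 53 members, 41 had a RefSeq start. The longest C and T run was 15 bases in Eif3f, 12 in Eef1a2, 10 in Eef1a1, 8 in Eef2 and 4 in Eef1b2. It was 6 bases in Eif3a, 4 in Eif3j1 and 4 in Eif4h. Among all 32851 RefSeq starts, 2.33% had a run of at least 15 bases in the same 60-base window, 10.9% one of at least 10, 22.9% one of at least 8 and 88.4% one of at least 4. Over the family, 12 of 49 member starts had a run of at least 8 bases, near the 22.9% of all starts. The run spanned the annotated start in Eif3f and Eef1a1, ended before it in Eef1a2 and began after it in Eef2. The Eef1a1 window ends in tatataa, the letters of a TATA box, which normally lies upstream of a start. Whether the start in use lies beyond this window was not tested, and the run shown for Eef1a1 is not read as part of its message. Only the strand of the gene was searched, and a run is a description of these letters, not a mapped TOP element. Long runs also occurred in members that did not pass, such as Eif2b5 with 21 bases and Eif2s3x with 16.

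The first comparison asked which factor mRNAs were over- or under-represented on the tagged ribosomes relative to the flow-through. The tested elongation factors were lower in HA: the 3 tested of 6 members of the eEF1 group and Eef2 fell, Eef1a1 most clearly. Eef1d and Eef1e1 were listed in HA only, so they could not be compared. The eIF3 scaffold split, with 3 subunits lower and 2 higher in HA. Eif4h was higher in HA. No tested member of the start codon, eIF2, eIF2 kinase, 4E-BP or subunit joining groups passed the test.

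This was tested with edgeR's quasi-likelihood test over the 10 title numbers present in both fractions. The fit had terms for treatment and fraction but none for title number. Benjamini-Hochberg adjustment was over 3295 genes at a threshold of 0.05. With the title number as a block, Eif3j1, Eif3h and Eif4h did not pass. Of the 41 shared members, 33 had enough counts to be tested. Lower in HA were 7 of 33 members, or 21.2%, where 7.37% of all genes tested were lower. Higher were 3 of 33, or 9.09%, where 13.2% of all genes were higher. The members' median log2 difference was 0.06, against 0.28 for all genes tested. Levels below are CPM, the usual scaling of counts to a fixed library size, here after TMM (trimmed mean of M-values) scaling. TMM follows the typical gene, so a level is relative to the other genes.

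**Figure D1:**
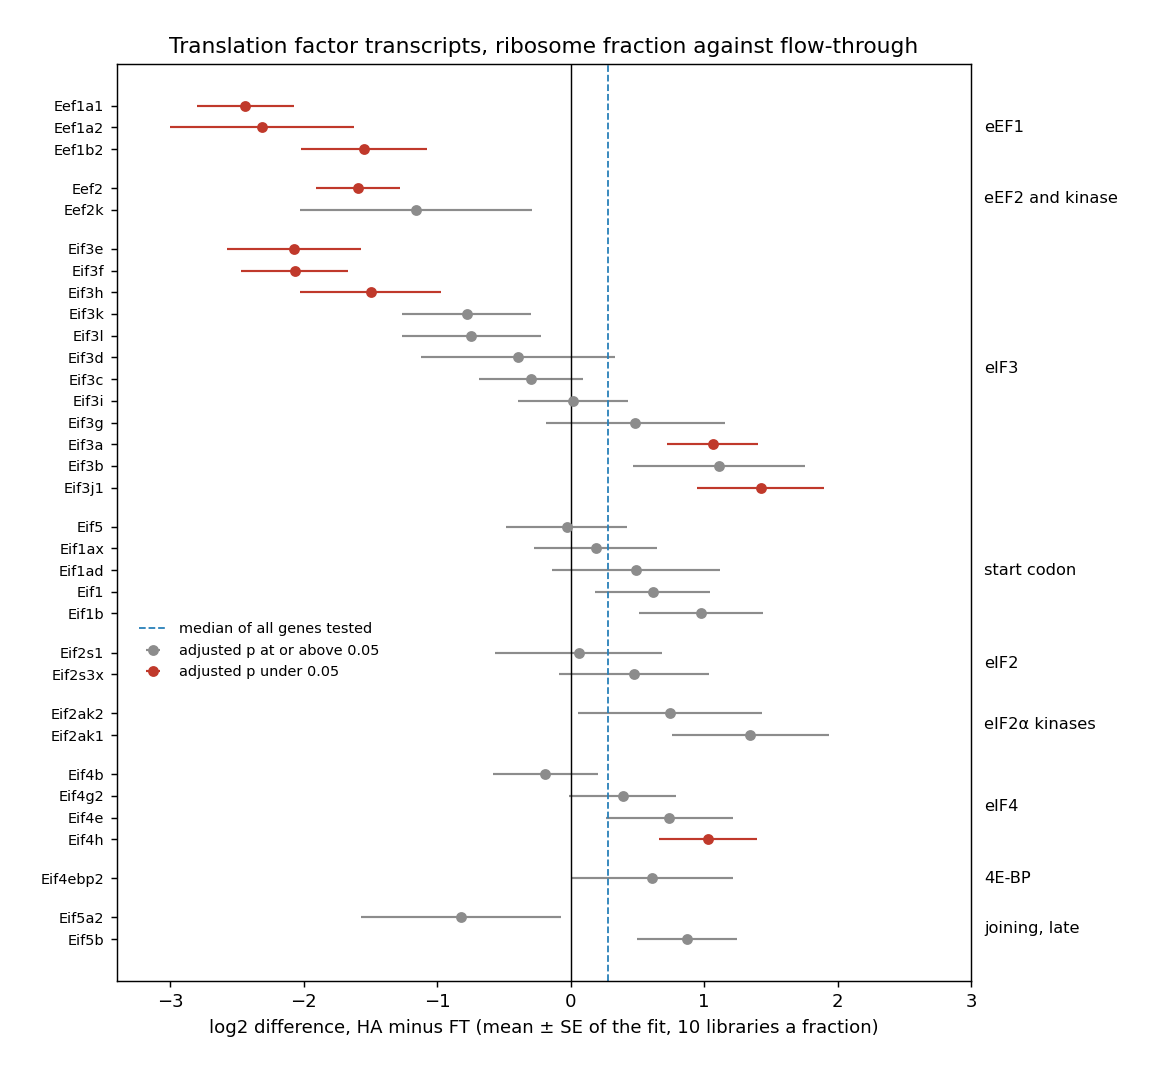
Log2 difference of HA minus FT for the 33 tested members, grouped by role; points are the fitted differences, bars their standard errors, and the dashed line the median of all genes tested. Red marks the 10 members past an adjusted p of 0.05: 7 lie left of zero, among them all 3 tested members of the eEF1 group, and 3 lie right of it.

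Eef1a1, which delivers aminoacyl-tRNA in most cells, had 103 CPM in the lowest, 219 in the median and 330 in the highest HA library. In FT it had 317, 1147 and 2284 CPM. HA was below FT in 10 of 10 title numbers, although the highest HA library overlapped the lowest FT library. The means were 221 ± 61.8 CPM in HA and 1270 ± 709 in FT (SD, n = 10 each), a log2 difference of -2.44 (SE 0.36; edgeR adjusted p = 7.85e-06). Eef1a1 has many processed copies in the genome, and how reads shared with them were counted is not given in the sources used here.

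The make-up of the family also differed between fractions. Eef1a1 took 10.6% to 26.8% of the counts of the 41 shared factors in HA libraries and 29.8% to 66.2% in the FT libraries of the same title numbers, with no overlap. The share in HA was lower in 10 of 10 title numbers. This share is taken within a library and does not depend on how libraries are scaled. FT libraries without an HA library of their number did not keep this separation. Library 1683 of hydrogel CT, with 35 factor counts, had 22.9%, inside the HA range. Over all 13 FT libraries the lowest share was 6.41%, in a hydrogel library with growth factors that had 78 factor counts in all.

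**Figure D2:**
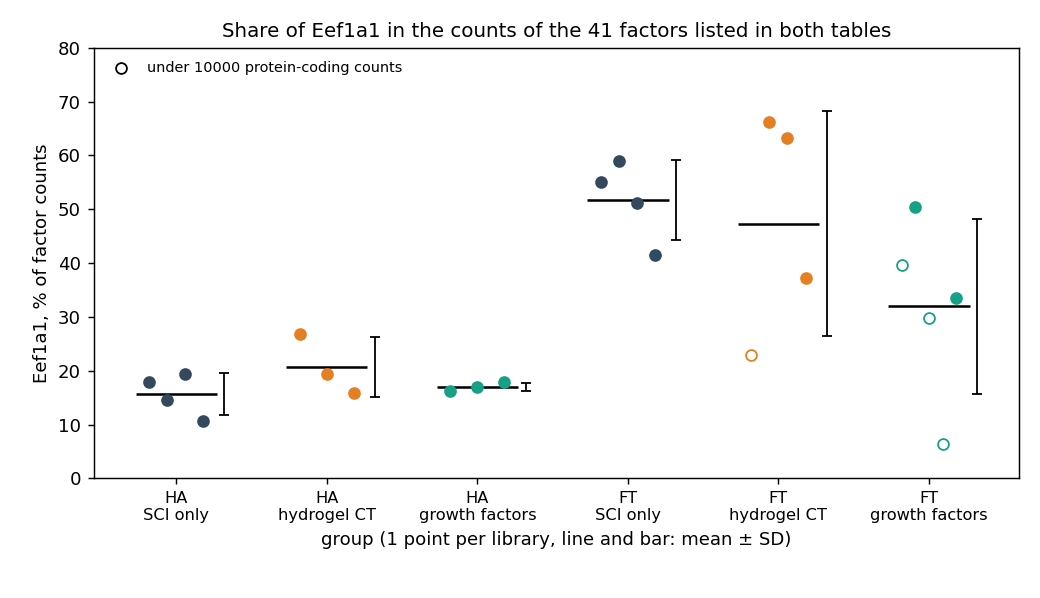
Eef1a1 as a percentage of the counts of the 41 factors listed in both tables, 1 point per library, with lines and bars for the group mean ± SD; open points are libraries under 10000 protein-coding counts. HA libraries lie between 10.6% and 26.8%, and FT libraries of SCI only between 41.6% and 58.9%. Hydrogel libraries 1683 and 1729 of FT lie at 22.9% and 6.41%, not above the HA range.

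A further scale divided by the protein-coding counts among each fraction's own listed genes, of which HA has more. This tends to lower the HA values, by an amount that was not measured. On this CPM scale over protein-coding counts alone, the factors together held 8980 to 13106 in HA and 20183 to 43101 in the FT libraries of the same numbers. Without Eef1a1 they held 7377 to 11192 in HA and 10998 to 20055 in FT. Both sums were lower in HA in 10 of 10 title numbers, though the ranges of the second overlapped slightly. The fraction total and the TMM scale thus differ: on TMM, 18 of 33 members had a positive difference. The direction of each member that passed was the same on both scales. Some members that did not pass were positive on TMM and negative on the protein-coding scale, among them Eif1, Eif1ax, Eif2s1, Eif2s3x, Eif3i, Eif4e and Eif4g2. On the protein-coding scale Eif3a was higher in HA in 9 of 10 title numbers, Eif3j1 in 9 of 10 and Eif4h in 6 of 10.

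Eef1a2, the paralog known from neurons and muscle, was scarce in HA, at 0, 3.26 and 15.7 CPM in the lowest, median and highest library. It had 2.19, 15.3 and 41.2 CPM in FT and was lower in HA in 9 of 10 title numbers, with overlap. The log2 difference was -2.31 (SE 0.69; edgeR adjusted p = 0.0142). Per kilobase of transcript, Eef1a1 exceeded Eef1a2 in both fractions, with mean levels of 123 against 1.92 CPM per kb in HA and 708 against 9.73 in FT. The call for Eef1a2 was lost without title number 1762 (edgeR adjusted p = 0.0564) or 9874 (0.05003).

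Eef1b2, a subunit of the exchange factor that recharges eEF1A, had 2.30, 7.56 and 13.5 CPM in HA and 5.36, 17.9 and 80.5 CPM in FT. It was lower in HA in 9 of 10 title numbers, by a log2 difference of -1.55 (SE 0.47; edgeR adjusted p = 0.0169). The call was lost without number 1724 (edgeR adjusted p = 0.0549) or 9843 (0.0509) and without a low-count filter (0.0571). Eef1g, the other exchange factor subunit listed in both tables, had 60 counts in HA and 18 in FT over these libraries and was not tested. Eef1g was higher in HA in 5 title numbers and lower in 3. Eef1e1, listed in HA only, had 490 counts there.

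Eef2, the translocase, had 31.3, 86.1 and 238 CPM in HA and 71.1, 279 and 895 CPM in FT. HA was below FT in 10 of 10 title numbers, with overlapping ranges. The means were 119 ± 77.1 in HA and 372 ± 282 CPM in FT (SD, n = 10 each), a log2 difference of -1.59 (SE 0.32; edgeR adjusted p = 0.000293). Its inhibitory kinase Eef2k differed by -1.16 (SE 0.87; edgeR adjusted p = 0.379), and 3 FT libraries had none of its counts.

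**Figure D3:**
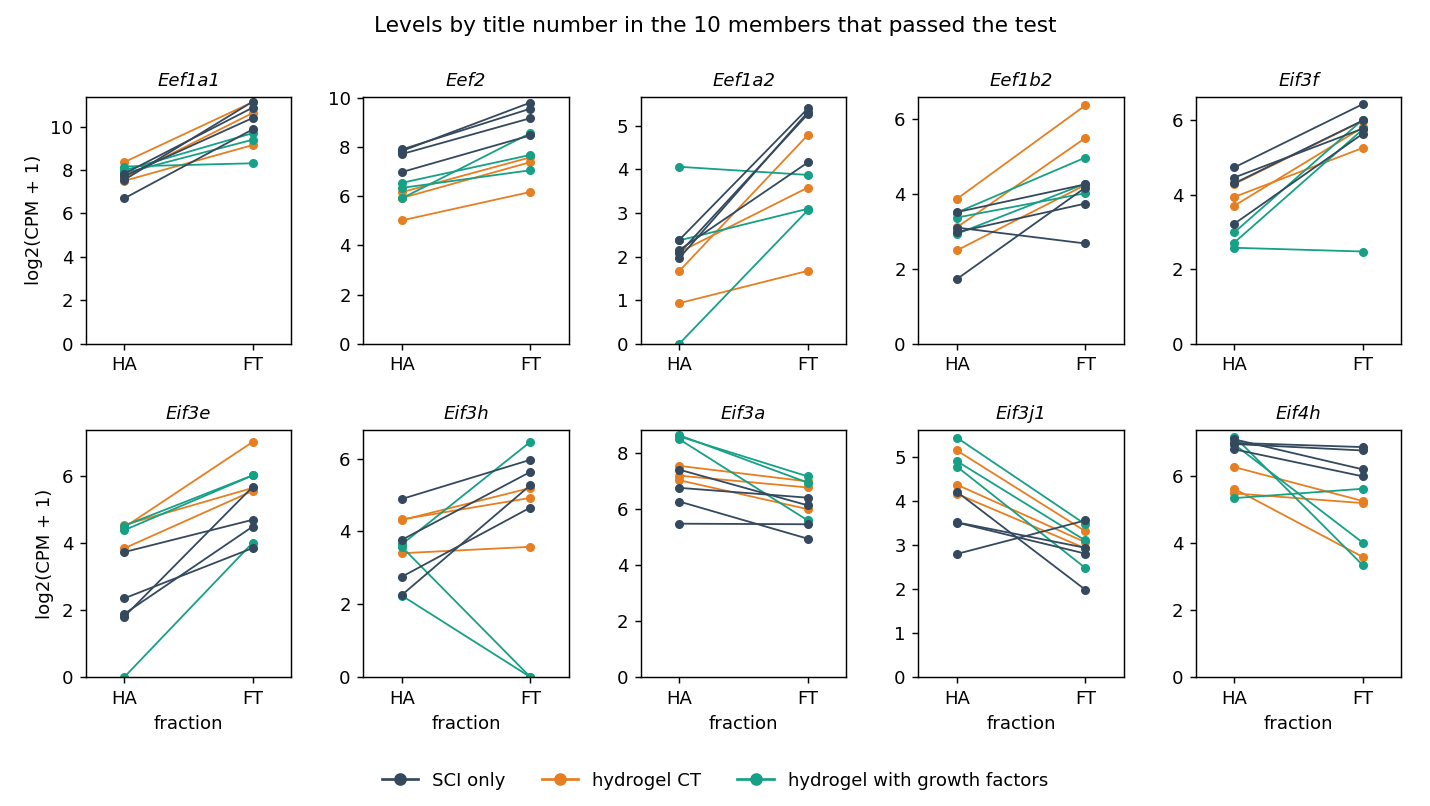
Levels of the 10 members that passed, as log2(CPM + 1) in HA (left) and FT (right) of each title number, joined by a line and coloured by treatment. Lines rise to FT in 10 of 10 numbers for Eef1a1, Eef2 and Eif3e, and fall to FT in 10 of 10 for Eif3a.

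The eIF3 complex holds the small subunit and the other initiation factors together. Of its 14 genes, 13 were in both tables and 12 were tested. Eif3f had 4.95, 13.2 and 25.5 CPM in the lowest, median and highest HA library and 4.55, 54.3 and 85.2 CPM in FT, and was lower in HA in 9 of 10 title numbers. Its log2 difference was -2.07 (SE 0.40; edgeR adjusted p = 0.00021). Eif3e had 0, 12.8 and 22.2 CPM in HA and 13.4, 47.4 and 128 CPM in FT and was lower in HA in 10 of 10 numbers. The log2 difference was -2.07 (SE 0.50; edgeR adjusted p = 0.0024). Eif3h, which pairs with Eif3f in the complex, was lower in HA in 8 of 10 numbers (log2 difference -1.50, SE 0.53; edgeR adjusted p = 0.0396). Without title number 1732 the log2 difference of Eif3h was -0.83 (edgeR adjusted p = 0.288), and the replicate block gave 0.0821. The call for Eif3h was also lost without number 1724, 1762, 9596, 9843, 9874 or 9935 and without a low-count filter (edgeR adjusted p between 0.0503 and 0.107).

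Eif3a, the largest subunit, went the other way. It had 43.2, 155 and 391.8 CPM in HA and 29.5, 75.7 and 141 CPM in FT, and was higher in HA in 10 of 10 title numbers, with overlapping ranges. The means were 197 ± 130 in HA and 82.6 ± 38.8 CPM in FT (SD, n = 10 each), a log2 difference of 1.06 (SE 0.34; edgeR adjusted p = 0.0235). Without number 9843 the adjusted p was 0.0586. Eif3j1, a loosely bound subunit, had 5.92, 18.5 and 42.0 CPM in HA and 2.94, 6.97 and 10.7 CPM in FT, and was higher in HA in 9 of 10 numbers. Its log2 difference was 1.42 (SE 0.48; edgeR adjusted p = 0.0300), and with the title number as a block the edgeR adjusted p was 0.0574. The call for Eif3j1 was also lost without number 1685, 1759, 1762 or 9596 (edgeR adjusted p between 0.0509 and 0.0959). Its near-identical copy Eif3j2 was listed in HA only, so reads shared between them are uncertain.

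The other eIF3 subunits tested differed by -0.78 (Eif3k) to 1.11 (Eif3b) on the log2 scale, and none passed. A grouping made after these values were seen set the subunits of the octamer formed by PCI and MPN domains apart from the rest. Of 7 octamer subunits tested, 6 had a negative difference, Eif3a being the exception. Of the 5 others, 4 had a positive one, Eif3d being the exception, though that of Eif3i was 0.02 (SE 0.41). In SCI only, 6 of 8 octamer subunits were negative and 3 of 5 others positive. Those libraries are part of the first count, so this is no independent check. On the protein-coding scale Eif3i was negative and Eif3g near zero, with log2 ratios of means of -0.59 and 0.04. The share of signs over all genes is not given here. Per kilobase, mean HA levels of the tested subunits ran from 2.57 CPM per kb for Eif3d to 38.5 for Eif3a. In FT they ran from 1.31 for Eif3j1 to 40.2 for Eif3k.

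Among the eIF4 proteins, Eif4h, which assists the helicase eIF4A, was higher in HA. It had 39.5, 116 and 144 CPM in HA and 9.10, 42.7 and 115 CPM in FT, and was higher in HA in 9 of 10 title numbers. The log2 difference was 1.03 (SE 0.37; edgeR adjusted p = 0.0432). This call was lost in 11 of 19 alternatives, among them the title number as a block (edgeR adjusted p = 0.0709) and leaving out number 1685, 1687, 1724, 1759, 9596, 9843 or 9935, with edgeR adjusted p up to 0.1203. The cap-binding protein Eif4e differed by 0.74 (SE 0.47), Eif4g2, a scaffold that does not bind Eif4e, by 0.39 (SE 0.40), and Eif4b, another helper of the helicase, by -0.19 (SE 0.39). None of these 3 passed.

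The start codon group had 4 of 5 tested members with a positive difference and none past the test, from -0.03 for Eif5 to 0.98 for Eif1b (SE 0.46; edgeR adjusted p = 0.137). Its positive members include Eif1ad (0.49), whose part in start codon selection was not examined here. On the protein-coding scale Eif1 and Eif1ax were negative, with log2 ratios of means of -0.09 and -0.33, so this count of signs depends on the scale. The eIF2 subunits Eif2s1 and Eif2s3x differed by 0.06 and 0.47. The heme-regulated kinase Eif2ak1 had a mean of 23.1 CPM in HA and 8.80 in FT, was higher in HA in 9 of 10 numbers and differed by 1.35 (SE 0.59; edgeR adjusted p = 0.104). The double-stranded RNA kinase Eif2ak2 differed by 0.74 (SE 0.69). Eif2ak3, the kinase of the endoplasmic reticulum, was listed in HA only, with 133 counts over 10 libraries. The repressor Eif4ebp2 had means of 19.1 CPM in HA and 11.96 in FT and differed by 0.61 (SE 0.61; edgeR adjusted p = 0.527). Eif4ebp1 was listed in HA only, with 65 counts. Eif5b differed by 0.87 (SE 0.38; edgeR adjusted p = 0.0988).

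The most abundant members by mean CPM were, in HA, Eef1a1, Eif3a, Eef2, Eif4h, Eif5b, Eif4b, Eif3c, Eif4g2, Eif1b and Eif1. In FT they were Eef1a1, Eef2, Eif3a, Eif4b, Eif3f, Eif4h, Eif3c, Eif3e, Eif5b and Eif3i. The order differed between groups. In HA, Eef1a1 led with hydrogel CT, at 146 CPM against 93.7 for Eif3a, while with growth factors Eif3a was at 229 and Eef1a1 at 156 CPM. In SCI only, Eef2 was at 107 and Eef1a1 at 98.9 CPM, within their spread. In FT, Eef1a1 was first and Eef2 next in each group. Per kilobase the highest mean HA levels after Eef1a1 were 40.9 CPM per kb for Eif4h, 38.6 for Eef2 and 38.5 for Eif3a.

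Other genes of the machinery were counted by lists. Of 7 tested termination, recycling and accessory factors, Pabpc1, the poly(A)-binding protein, was lower in HA (log2 difference -2.06, SE 0.37; edgeR adjusted p = 0.000108) and none was higher. None of 9 aminoacyl-tRNA synthetases or of 3 translation regulators passed. The 1 mitochondrial factor tested, Gfm2, was lower (log2 difference -3.12, SE 0.58; edgeR adjusted p = 0.000129).

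Cell type markers moved with the fraction. Astrocyte markers were higher in HA for 11 of 13 tested genes, and their summed level was 4041 to 8447 CPM in HA and 215 to 2000 in FT. Neuron markers were lower for 6 of 9, with sums of 49.8 to 312 CPM in HA and 357 to 1647 in FT. Microglia and macrophage markers were lower for 8 of 9, with sums of 17.1 to 840 CPM in HA and 95.01 to 7791 in FT. Oligodendrocyte markers were higher in HA for 4 of 9, with sums of 911 to 2221 CPM in HA and 153 to 1270 in FT. Every listed neuron and microglia marker had counts in each HA group, while Syt1, Rbfox3, Eno2, Aif1 and Csf1r were not listed. Their part in the factor differences was not tested, and fewer cells of a type cannot be told apart from less RNA per cell.

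Within SCI only, where the FT libraries were deepest, Eef1a1 was at 210, 187, 228 and 103 CPM in HA and at 1354, 2284, 1887 and 941 CPM in FT for numbers 9596, 9843, 9874 and 9935, on the scale of the 10-number comparison. No FT library was near the HA range. The fit of these 4 pairs alone gave a log2 difference of -3.12 (edgeR adjusted p = 4.03e-05). Eef1a2 was at 4.22, 3.44, 2.91 and 3.23 CPM in HA and 41.2, 16.9, 38.8 and 37.5 in FT, again without overlap (log2 difference -3.25; edgeR adjusted p = 0.00114). Eef2 was at 125, 238, 228 and 209 CPM in HA and 354, 754, 895 and 576 in FT (log2 difference -1.66; edgeR adjusted p = 0.00508). Eif3f differed by -1.74 (edgeR adjusted p = 0.0134) and Eif3e by -2.34 (0.0269), both without overlap.

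These 5 were the members called in SCI only, of 34 tested (14.7%), where 5.58% of all 3622 genes were lower. None was higher, where 6.05% of all genes were. At an unadjusted p under 0.05 there were 9 members (26.5%), where 24.1% of all genes were. Without number 9843 Eif3f had an edgeR adjusted p of 0.0844, and Eif3e had 0.0683, 0.275 and 0.0904 without 9596, 9874 and 9935. Within SCI only Eif3a differed by 0.78 (edgeR adjusted p = 0.287), Eif3j1 by 0.88 (0.498), Eif4h by 0.48 (0.421), Eif3h by -1.69 (0.0734) and Eef1b2 by -0.96 (0.421). A fit of the title numbers of the hydrogel groups alone, added after the data were seen, called 2 members, Eef1a1 (log2 difference -1.80; edgeR adjusted p = 0.0239) and Eif3f (-2.15; 0.0376). The other 8 members kept their direction there without passing.

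The next comparisons asked whether the hydrogel, with or without growth factors, went with other factor levels in the tagged ribosomes. By edgeR's test no member passed in any of the 3 comparisons of HA groups. The member nearest to the threshold was Eif3a, with means of 229 CPM with growth factors and 52.2 CPM in SCI only. Eef2k had 1 count over the 3 growth factor libraries. The 3 groups shared 1 fit over 6654 genes, with 48 of the 53 members tested. Levels in this and the other treatment comparisons are scaled within their own fraction, so they differ from those given between HA and FT. The contrasts share groups and are not independent. With 3 or 4 libraries a group, levels did not overlap in 10 or 11 of the 48 members in each comparison. The share over all genes is not given here, so a lack of overlap is not read as a result.

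Between hydrogel with growth factors and SCI only, 0.436% of all genes passed and no member did. At an unadjusted p under 0.05 there were 8 members (16.7%), where 21% of all genes were, and DESeq2 called 5 of 45 members (11.1%), where it called 12% of all genes. Eif3a was at 252, 215 and 219 CPM with growth factors and at 62.1, 83.9, 23.8 and 39.0 CPM in SCI only, without overlap. The means were 229 ± 20.4 (SD, n = 3) and 52.2 ± 26.4 CPM (n = 4), a log2 difference of 2.13 (SE 0.49; edgeR adjusted p = 0.0521). Eif3a passed without a low-count filter, with scaling that left out Yam1, Lars2 and Gm gene models, with DESeq2, and without growth factor library 1687 or 1732. In the other 9 alternatives no member passed. In the authors' deposited table Eif3a had a log2 fold change of 2.19 in this comparison, with a false discovery rate of 0.00517.

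Eef2k had 1, 0 and 0 counts in the growth factor libraries and 168, 2, 41 and 6 counts in SCI only. Over the groups this is a ratio of 0.00444 between growth factors and SCI only, with an exact 95% interval of 0.000112 to 0.025 that covers counting error only (edgeR adjusted p = 0.0835). In the authors' deposited table Eef2k had a log2 fold change of -7.14, with a false discovery rate of 0.0133. The SCI only libraries themselves ranged from 0.385 to 12.5 CPM. Eif2s3x, the X-linked eIF2 subunit, was at 14.6, 19.9 and 14.1 CPM with growth factors and at 3.96, 2.12, 3.55 and 4.45 CPM in SCI only, without overlap. Its log2 difference was 2.20 (SE 0.76; edgeR adjusted p = 0.137). The 3 tested eIF2B subunits all had negative differences, from -2.40 to -1.33, and none passed.

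Between hydrogel CT and SCI only, 0.195% of all genes passed and no member did. At an unadjusted p under 0.05 there were 4 members (8.33%), where 12.7% of all genes were, and DESeq2 called 1 of 38 members (2.63%), where it called 4.91% of all genes. Eef2 was at 43.0, 37.2 and 19.5 CPM with hydrogel CT and at 73.3, 120, 126 and 108 CPM in SCI only, without overlap. The log2 difference was -1.68 (SE 0.51; edgeR adjusted p = 0.190). Eif1ax, which helps place the start codon, was at 29.6, 45.3 and 35.6 CPM with hydrogel CT and at 12.5, 5.78, 2.29 and 4.73 CPM in SCI only, also without overlap (log2 difference 2.53, SE 0.79; edgeR adjusted p = 0.199). Eif5, the GTPase activator of eIF2, averaged 26.4 ± 2.24 CPM (SD, n = 3) against 6.30 ± 6.85 (n = 4), with a log2 difference of 2.05 (edgeR adjusted p = 0.319).

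Between the hydrogel groups, 0.0902% of all genes passed and no member did. At an unadjusted p under 0.05 there were 2 members (4.17%), where 13.3% of all genes were, and DESeq2 called 1 of 45 members, Eef2k (2.22%), where it called 5.03% of all genes. Eef2k had 132, 198 and 30 counts with hydrogel CT and 1, 0 and 0 with growth factors. The ratio of growth factors to CT was 0.0148, with an exact 95% interval of 0.000373 to 0.0828 for counting error only (edgeR adjusted p = 0.250). Eef2kmt, which methylates eEF2, had 165 counts with hydrogel CT, 141 of them in library 1759, and 1 with growth factors (edgeR adjusted p = 0.379). Eif3a was at 112, 89.3 and 80.1 CPM with hydrogel CT, all below the growth factor libraries, for a log2 difference of 1.29 (SE 0.53; edgeR adjusted p = 0.305). Protein-coding counts ranged from 277438 to 1497522 in the growth factor libraries and from 2799292 to 5707401 with hydrogel CT, and the part of depth was not tested.

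**Figure D4:**
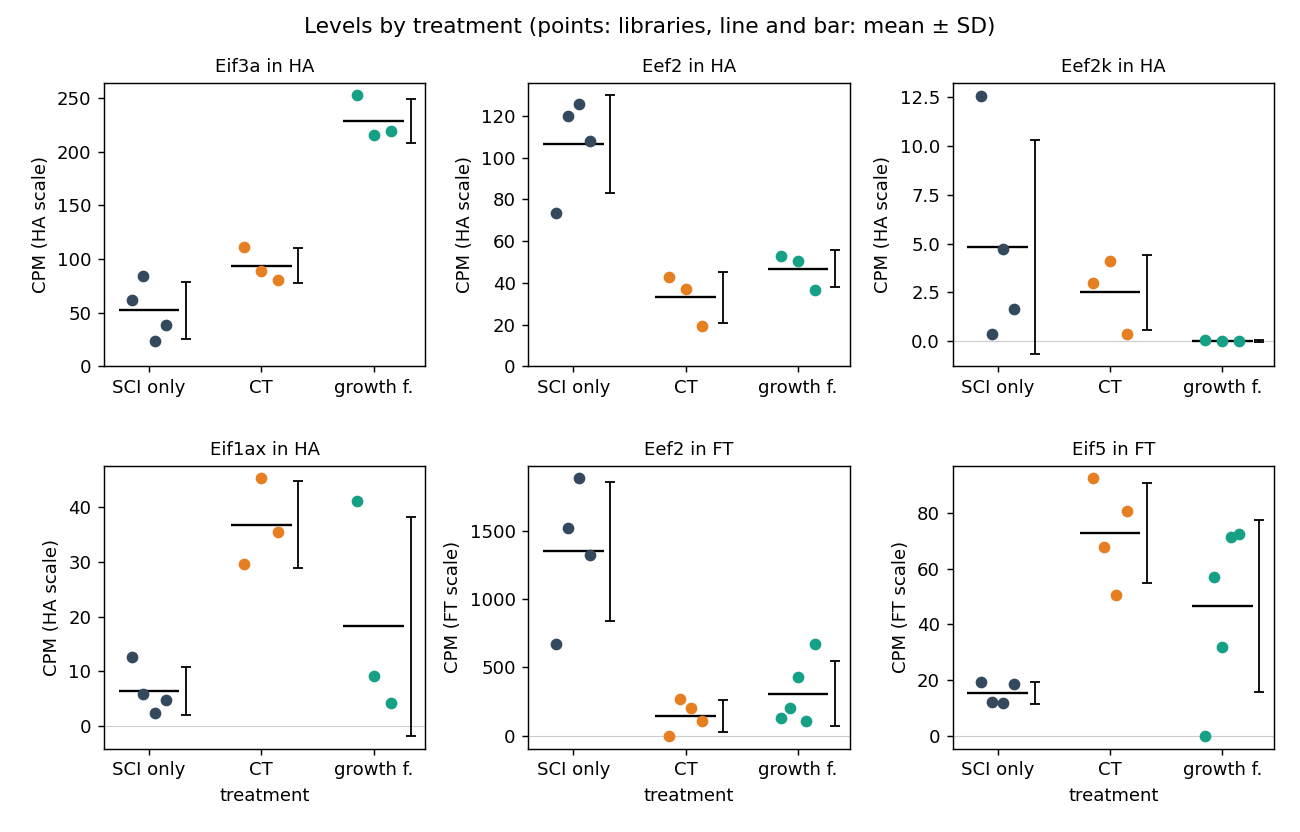
CPM of 4 members in HA and of Eef2 and Eif5 in FT by treatment, 1 point per library, with lines and bars for the mean ± SD; the HA and FT panels are scaled within their own fraction. Eif3a lies between 215 and 252 CPM in the growth factor libraries of HA, above all others, and Eef2 in FT lies between 673 and 1880 CPM in SCI only, above the hydrogel CT libraries.

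In HA the other regulators gave no call. Eif4ebp1 had 3, 18, 33 and 1 counts in SCI only, 0, 5 and 5 with hydrogel CT and none in the 3 growth factor libraries. It did not pass the count filter. In the authors' deposited table its row had a log2 fold change of -8.36 between growth factors and SCI only, with a false discovery rate of 0.0402. That table called 3 of 70 member rows in this comparison, where 412 of all 10389 rows were called. Eif4ebp2 averaged 7.30 ± 5.99 CPM in the 4 SCI only libraries, 8.17 ± 2.54 in the 3 of hydrogel CT and 20.2 ± 22.3 (SD) in the 3 with growth factors. Eif2ak1 averaged 14.1 ± 12.1, 11.3 ± 2.40 and 15.9 ± 15.2 CPM, and Eif2ak2 3.63 ± 1.65, 10.0 ± 8.17 and 9.99 ± 11.9 CPM, in the same order. Their spreads were as wide as the differences between groups. Eif2ak3 averaged 1.58 ± 1.31, 0.542 ± 0.876 and 0.143 ± 0.247 CPM.

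In the flow-through, 14 of 41 members had enough counts to be tested, among 610 genes. Eef2 was lower with hydrogel CT than in SCI only, the 1 member that passed in FT. Eif5 had a positive difference there without passing. Eef1a1 and Eef2 had negative differences with growth factors against SCI only, and neither passed. Against SCI only, levels did not overlap in 5 of 14 members with hydrogel CT and in 2 of 14 with growth factors. The share over all genes is not given here either.

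Between hydrogel CT and SCI only, 1 of 14 members was lower (7.14%), where 2.95% of all genes were, and none was higher. Eef2 was at 0, 271, 202 and 108 CPM in libraries 1683, 1724, 1759 and 1762 of hydrogel CT and at 673, 1519, 1880 and 1322 CPM in the SCI only libraries. The groups did not overlap, but library 1683 was so shallow that 3 counts stood for 69.2 CPM. The means were 145 ± 118 and 1348 ± 506 CPM (SD, n = 4 each), a log2 difference of -3.14 (SE 0.82; edgeR adjusted p = 0.0309). This call was lost without any 1 of the 8 libraries compared (edgeR adjusted p from 0.0562 to 0.149) and with DESeq2's size factors (0.0576). It held without the shallow libraries. In the authors' deposited table Eef2 had a log2 fold change of -2.90, with a false discovery rate of 0.0274. That table also called Eif3d (log2 fold change -3.74, false discovery rate 0.0323) and Eif4h (-2.31, 0.0354). With Eef2 and Eif5, these were 4 of 45 member rows, where 410 of all 5001 rows were called.

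Eif5 was at 92.3, 67.8, 50.4 and 80.7 CPM with hydrogel CT and at 19.2, 11.99, 11.9 and 18.4 CPM in SCI only, without overlap. Its log2 difference was 2.17 (SE 0.66; edgeR adjusted p = 0.0679). In the authors' deposited table Eif5 passed, with a log2 fold change of 2.23 and a false discovery rate of 0.0143. On the same FT scale, summed microglia and macrophage markers were at 6292 to 15685 CPM in the 4 SCI only libraries and at 138, 3420, 2562 and 531 CPM in the 4 hydrogel CT libraries, and 1 of 6 tested, C1qa, was lower. Neuron markers summed to 719 to 1685 CPM in SCI only and 484 to 2346 with hydrogel CT, with overlap, and none of 4 passed. Their part in the Eef2 and Eif5 values was not tested.

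Between hydrogel with growth factors and SCI only, 3.77% of all genes passed and no member did by edgeR. At an unadjusted p under 0.05 there were 4 members (28.6%), where 18.7% of all genes were, and DESeq2 called 2 of 14 members, Eif4e and Eif5 (14.3%), where it called 13% of all genes. Eef2 was at 131, 207, 431, 107 and 670 CPM in growth factor libraries 1645, 1685, 1687, 1729 and 1732. All were below the SCI only libraries, the nearest at 673 CPM. The log2 difference was -2.09 (SE 0.73; edgeR adjusted p = 0.128). Eef1a1 was at 687, 1304, 670, 59.4 and 1197 CPM in these libraries and at 2570, 4598, 3964 and 2158 CPM in SCI only, without overlap (log2 difference -2.08, SE 0.78; edgeR adjusted p = 0.143). Microglia and macrophage markers summed to 1865, 1811, 1771, 95.1 and 168 CPM in these libraries and to 6292 to 15685 CPM in SCI only. Of 6 tested, 3 were lower and 1 was higher. None of 4 neuron markers passed. The part of these markers in the Eef1a1 and Eef2 values was not tested. Eif5 differed by 1.78 (SE 0.64; edgeR adjusted p = 0.133). The authors' deposited table, with 1 row per transcript, called 4 of its 45 member rows in this comparison, all lower. It called 454 of all 5001 rows. Its log2 fold changes were -3.58 for Eif4ebp2 (false discovery rate 0.000727), -2.20 for Eif4h (0.0244), -2.32 for Eef1a2 (0.0255) and -2.52 for 1 transcript of Eef1a1 (0.0295).

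Between the hydrogel groups in FT, 0% of the genes passed by edgeR (23 genes, or 3.77%, and no member at an unadjusted p under 0.05; no gene by DESeq2). The member with the smallest p was Eif4b, at 133 ± 38.2 CPM with growth factors (SD, n = 5) and 53.2 ± 31.4 with hydrogel CT (n = 4). The log2 difference was 1.31 (SE 0.65; edgeR adjusted p = 0.954). Eif3c differed by -0.97 (SE 0.64) and Eef2 by 1.05 (SE 0.75), both at the same adjusted p. The hydrogel CT libraries held 35 to 1151 factor counts each, and the part of depth was not tested.

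Whether a treatment effect differed between HA and FT was tested as an interaction over 4675 genes, with 40 members tested. For hydrogel CT against SCI only, 0% of the genes passed by edgeR (281 genes, or 6.01%, and no member at an unadjusted p under 0.05; no gene by DESeq2). The smallest p among members was that of Eif3c, with an interaction of -1.43 on the log2 scale (SE 1.00; edgeR adjusted p = 0.919). For growth factors against hydrogel CT, 0% passed as well (620 genes, or 13.3%, and 3 members, or 7.5%, at an unadjusted p under 0.05; 1.23% of genes and no member by DESeq2). The 3 members were Eif4ebp2 with 3.67 (SE 1.47; edgeR adjusted p = 0.251), Eif3c with 2.12 (SE 1.03; 0.365) and Eef2k with -4.33 (SE 2.15; 0.372). The Eef2k value rests on 1 count in the HA libraries with growth factors.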

How the data were processed

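RNA-seq counts of 23 libraries were analysed. For each fraction the authors deposited raw counts, as whole numbers, by Ensembl transcript. Per the file headers, the same tables hold an edgeR log2 fold change, p-value and false discovery rate of every treatment pair. The submitters' processing notes name mm10, edgeR and CASAVA 1.8.2. The aligner, the counter, strand handling and the annotation were not stated in the sources at hand, so overlapping, antisense and near-identical genes could not be told apart. A further 45 per-sample columns were not used.

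Counts were summed per symbol. Entries lacking a gene symbol (136 of HA, 35 of FT) held at most 0.319% of a library's counts and were left out. Transcript lengths came from GENCODE M21 (mm10), start-site sequences from RefSeq (GRCm38.p6). Tests used edgeR 4.0.16 in R 4.3.3 (quasi-likelihood, two-sided, TMM, filterByExpr with a minimum count of 10, Benjamini-Hochberg). The SE is the size of the log2 difference over the square root of F. Alternatives were DESeq2 1.42.0, its size factors, scaling without ribosomal loci, other low-count filters, counts per transcript, only the 2 groups compared, a replicate block, leaving out libraries, and, added after the data were seen, leaving out shallow FT libraries and the hydrogel title numbers alone. Scripts were tested on simulated data.

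Groups came from the labels. The series design text takes HA and FT from shared tissue, so a shared title number was read as shared tissue. Same-number correlations of deviations from group means ranged from 0.0086 to 0.104, and 2 of 10 exceeded 0.1. In 8 of 10 numbers the HA library correlated best with the FT library of its own number, among those of its treatment. Named members were those past the threshold anywhere, the 10 highest by mean CPM per fraction, the Eef1a and Eif2s3 paralogs, the 4E-BPs, the eIF2 kinases and Eef2k, and the 3 of smallest p where none passed. Members and lists were chosen with earlier results of these data known.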

Additional observations from a re-analysis of the deposited data

Results flagged for a closer look

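Among 48 sets of 4 or 5 libraries examined for a library far from the rest, 6 had one, and chance alone flags about 1 in 20. Levels of single genes here are scaled within each fraction. In HA of SCI only, Eef1a2 was at 2.46 CPM in library 9596 and at 1.60 to 1.73 in the others, and Eif4h at 55.4 CPM in library 9843 and at 69.5 to 71.9 in the others. In FT of SCI only, Eef1a2 was at 34.0 CPM in library 9843 and at 78.2 to 86.1 in the others. In FT with growth factors, library 1732, the deepest of its group, had 154 CPM of Eif3h against 0 to 35.6, and 85.4 CPM of Eif4h against 14.3 to 32.7. In the same group, library 1729 had a factor total of 7975 in CPM over protein-coding counts alone, against 22219 to 26602 in the others.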

How the results depend on the processing

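None of the members' calls between HA and FT or in FT changed direction under the alternatives run. Between HA and FT, 10 members passed. Leaving out 1 title number gave 6 to 10, with 6 without 9843, and the hydrogel title numbers alone gave 2. Without the low-count filter 5 were higher and 5 lower. The replicate block gave 7, losing Eif3j1, Eif3h and Eif4h, and in SCI only it added Eif3h, for 6. The block was run for these 2 comparisons. Eef1a1 and Eif3f passed in 19 of 19 alternatives, and Eef2 and Eif3e in 18. In SCI only, 5 members passed, and no alternative moved this count by more than 1.5 times. Growth factors against hydrogel CT in HA gave 0 members, and 1 by DESeq2. Hydrogel CT against SCI only in HA gave 0, 1 by DESeq2 (Eef2), and 1 with only these groups in the fit (Eif1ax). Growth factors against SCI only in HA gave 0, 5 by DESeq2, 1 without the filter, 1 with scaling that left out ribosomal loci, and 0 to 1 leaving out a library. In FT, hydrogel CT against SCI only gave 1, 0 with DESeq2's size factors, 2 with scaling that left out ribosomal loci, 3 by DESeq2, 4 with only these groups in the fit, and 0 to 0 leaving out a library. Growth factors against SCI only in FT gave 0, 2 by DESeq2, 1 without the filter, 1 at a minimum of 5 CPM (Eif4ebp2 in both) and 0 to 1 leaving out a library. Over all genes DESeq2 called 293 of 5827, 244 of 4974 and 715 of 5953 in the HA comparisons, in the order given, where edgeR called 6, 13 and 29 of 6654. In FT against SCI only it called 57 genes for hydrogel CT and 79 for growth factors, where edgeR called 20 and 23. The causes, depth among them, were not tested.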
